A study of Sinonovacula constricta with 18 samples.

Results

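The siphon and the foot of the razor clam Sinonovacula constricta were compared by RNA-seq, with 3 siphon libraries set against 3 foot libraries, 6 of the 18 libraries of the series. The series holds adult tissues of healthy clams, collected to describe where light-sensing proteins and other transcripts are expressed in an eyeless bivalve. The other libraries are 3 each of mantle, gill, labial palp and intestine. Each library was made from a pool of 3 individuals, no treatment or genotype separates the groups, and the foot libraries are titled as muscle. The deposited tables give, for 32250 isoform clusters per library, the reads estimated to come from each cluster and an FPKM, which scales fragments by cluster length and by the mapped total. Siphon and foot were compared over 28330 clusters, those whose reads in the 6 libraries added up to 10 or more, and 3920 were left out.

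The siphon is a muscular tube formed by fused edges of the mantle, through which a buried clam draws and expels water and which it withdraws when disturbed or shaded. The foot is the muscular organ with which the animal digs. Both organs carry muscle, nerve and a ciliated or secretory surface, and both meet the outside water and sediment. The clusters carry identifiers and no gene names, so that no cluster can be given a function here, and the tissue labels could not be checked against marker genes.

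The counts of the siphon libraries summed to between 14701660 and 17970120 with a median of 16285947, and those of the foot libraries to between 14880761 and 17398968 with a median of 15739506. The other 4 tissues had totals between 9982441 and 12116543. Before any difference between the tissues is read, the replicate numbers have to be considered, because siphon and foot libraries of the same number resembled each other more than libraries of the same tissue. CPM is the count scaled to a common library total, with each total adjusted by the TMM method of edgeR. The correlation across clusters of log2(CPM + 0.5) lay between 0.906 and 0.925 in the 3 same-numbered pairs of siphon and foot. It lay between 0.708 and 0.785 in the 6 pairs within a tissue and between 0.675 and 0.753 in the 6 pairs that shared neither tissue nor number. Clusters are not independent replicates, so these values are descriptions. Between 4.37% and 6.50% of the clusters differed at least 4-fold within a same-numbered pair, against 12.6% to 16.3% within a tissue. The closest library of each siphon library was the foot library of its own number in 3 of 3 cases, and the same held for the foot libraries. The labels do not say what a number stands for. Whether the same individuals gave both tissues of a number is not stated, and p-values measure only the spread between these pools.

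**Figure D1:**
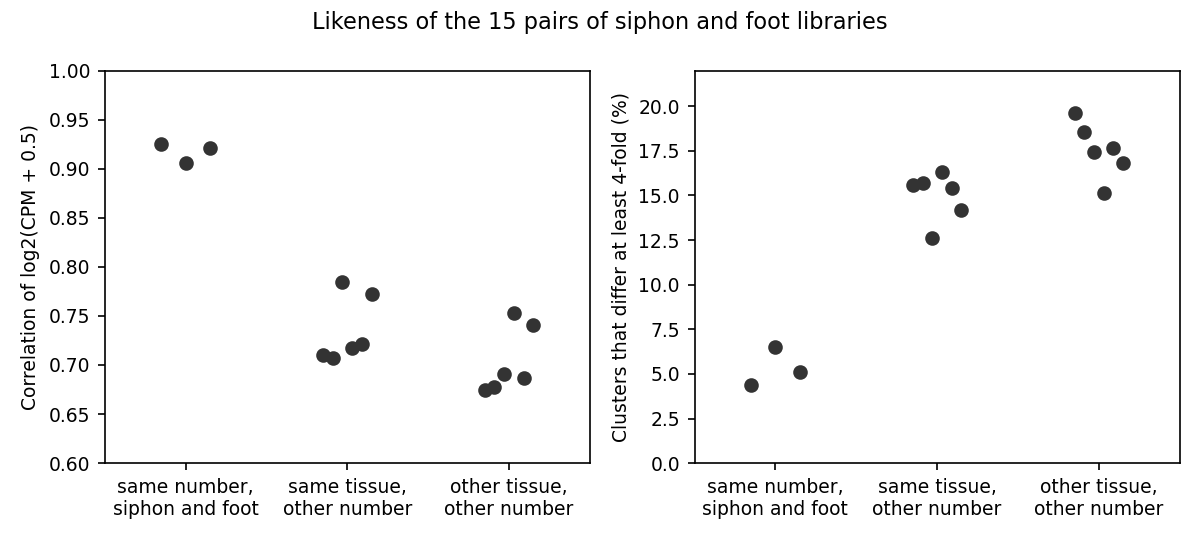
Likeness of the 15 pairs that the 3 siphon and 3 foot libraries form, with the correlation of log2(CPM + 0.5) in the left panel and the percentage of 28330 clusters that differ at least 4-fold in the right panel, 1 point per pair. The same-numbered pairs of siphon and foot have the highest correlations, 0.906 to 0.925, and the fewest 4-fold differences, 4.37% to 6.50%.

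With the replicate number as a block, 27 clusters differed between siphon and foot, of which 21 were higher in the siphon and 6 in the foot (edgeR quasi-likelihood test with Benjamini-Hochberg adjusted p under 0.05). They were 0.0953% of the clusters tested, 0.0741% for the siphon and 0.0212% for the foot. The changes were large: the siphon-higher clusters had a median fold of 24.1 with a range of 6.63 to 1687, and the foot-higher clusters a median fold of 111 with a range of 16.7 to 173. Over all 28330 clusters the median log2 fold change was 0.04. In bulk libraries, fewer cells of a type and less RNA per cell cannot be told apart. Without the block, 2 clusters passed, or 0.00706%, 1 in each direction. Both were among the 27.

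The number of calls depended on the tool, the block and the libraries in the fit. In edgeR an unadjusted p under 0.05 was reached by 4262 of the 28330 clusters with the block and by 1742 without it. The median biological coefficient of variation was 0.352 with the block and 0.695 without it. DESeq2 with the same block called 3794 clusters, 13.4% of those tested, 1834 higher in the siphon and 1960 higher in the foot (6.47% and 6.92%). All 27 clusters called by edgeR were among them. Fitting all 18 libraries together called 538 clusters or 1.9%, and these included 24 of the 27. When any 1 of the 6 libraries or any 1 replicate number was left out, edgeR called 0 clusters with adjusted p of at least 0.188. In these fits 2950 to 3733 of the 28330 clusters had an unadjusted p under 0.05 (edgeR). With the block, a library left without its same-numbered partner adds almost nothing to the comparison. Fewer residual degrees of freedom remained than the 2 of the full fit. The counts of 0 therefore cannot show whether the calls rest on a given library. DESeq2 called 2223, 1164 and 2131 of the 28330 clusters without replicate number 1, 2 and 3, and all 27 were in each of these sets with the same direction. The direction of all 27 was the same under every setting examined. The 27 were chosen on these same libraries and differed at least 4-fold in 3 of 3 same-numbered pairs. Their presence among the DESeq2 calls and their steady direction are therefore not separate support.

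**Figure D2:**
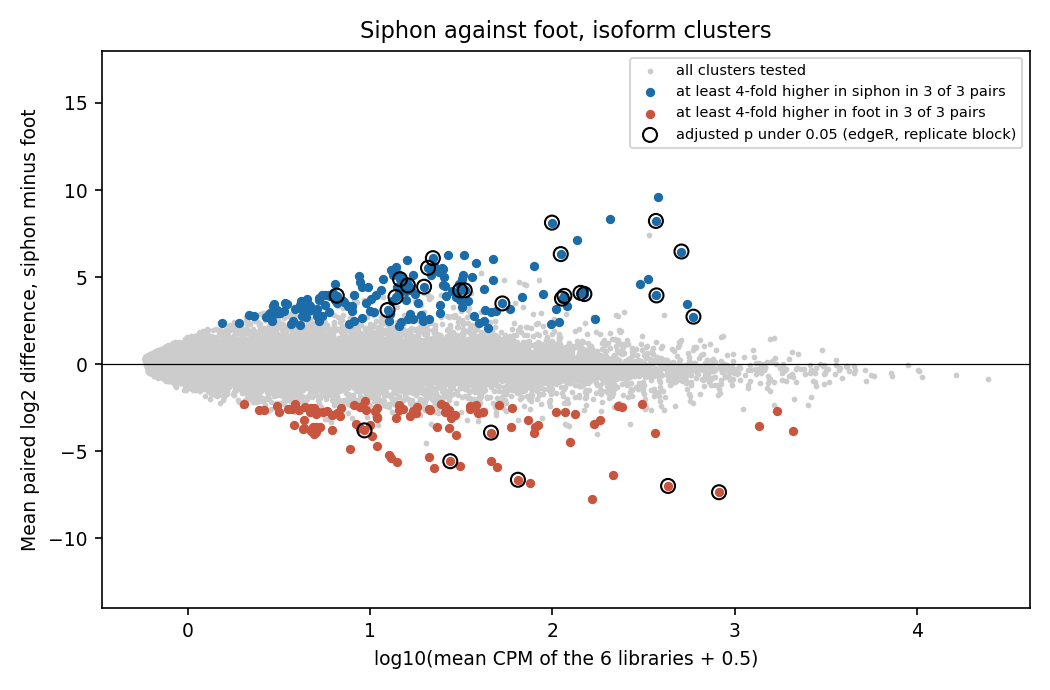
Mean of the 3 paired log2 differences in CPM, siphon minus foot, on the vertical axis against the log10 mean CPM of the 6 libraries, 1 point per cluster. Blue and red points are the 169 and 109 clusters at least 4-fold higher in the siphon and in the foot in 3 of 3 same-numbered pairs, and black rings mark the 27 clusters past the threshold.

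The 27 clusters are numbered here by their mean FPKM in the tissue where they were higher, S1 to S21 for the siphon and F1 to F6 for the foot. All 21 siphon-higher clusters had siphon FPKM above foot FPKM without overlap, and so did all 6 foot-higher clusters in the opposite direction. This description uses the values that made the calls. Of all clusters tested, 2940 (10.4%) had siphon libraries above foot libraries in FPKM and 948 (3.35%) had foot libraries above siphon libraries. On CPM scaled by the TMM method of edgeR the same counts were 1919 (6.77%) and 1735 (6.12%), so the imbalance between the directions on FPKM depended on the scaling.

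The siphon-higher cluster with the highest level was S1, identifier c11158/1/1861.1. It had 881, 1232 and 1569 FPKM in siphon libraries 1, 2 and 3, against 13.4, 7.42 and 13.2 FPKM in the foot libraries. Each siphon library was far above each foot library, and the log2 fold change was 6.54 ± 0.34 (SE, adjusted p = 0.0499, edgeR). The SE, here and below, was derived from the test and is not an output of edgeR. It is the absolute log2 fold change divided by the square root of the F statistic. S1 was not restricted to the siphon, since it averaged 1001 FPKM in the mantle, 944 in the gill and 138 in the labial palp, with 1.42 FPKM in the intestine.

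S3, identifier c13218/1/2383, was the siphon-higher cluster that also passed without the block, and it is named here after its values were seen. Its FPKM was 471, 549 and 459 in the siphon libraries, against 1.04, 1.21 and 1.07 in the foot libraries. The 3 libraries of each tissue lay close together, with ratios of siphon to foot FPKM of 453, 454 and 429 within numbers 1, 2 and 3. The log2 fold change was 8.55 ± 0.21 (SE, adjusted p = 0.0311, edgeR). In the other 4 tissues S3 averaged between 1.20 and 2.95 FPKM, close to the foot level, and the highest single library among these tissues had 8.46 FPKM, so that a high level was seen in the siphon alone among the 6 tissues. S15 had the same pattern at a lower level. It had 26.9, 34.8 and 46.8 FPKM in the siphon, against 0.30, 0.13 and 0.45 FPKM in the foot, and at most 0.273 FPKM on average in the other 4 tissues.

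The largest fold change among the called clusters was that of S5. It had 164, 393 and 585 FPKM in the siphon, against 0, 0.22 and 0.35 FPKM in the foot. The foot values rest on 0, 2 and 3 reads, so the size of the change, 10.72 ± 0.48 on the log2 scale (SE, adjusted p = 0.0469, edgeR), is set by very few foot reads. An SE derived from the test statistic does not give the counting error of so few reads. The mantle stood between siphon and foot at a mean of 123 FPKM, followed by the labial palp at 20.0, the gill at 12.9 and the intestine at 3.51 FPKM. S12 was also nearly unread in the foot, with 668, 712 and 880 reads in the siphon libraries against 1, 1 and 4 reads in the foot libraries.

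Several siphon-higher clusters varied several-fold among the siphon libraries while the ratio to the foot library of the same number stayed within a narrow range. The test with the block favours clusters with such steady ratios, so the narrow range is in part a property of the calls. S13 had 5.09, 40.3 and 70.4 FPKM in siphon libraries 1, 2 and 3, against 0.43, 2.20 and 4.25 FPKM in the foot libraries. The lowest siphon value was only slightly above the highest foot value, and on TMM-scaled CPM the groups overlapped, yet the ratio was 11.8, 18.3 and 16.6 within the numbers. S9 had 71.9, 191 and 42.7 FPKM in the siphon and 4.01, 9.34 and 1.91 FPKM in the foot, with ratios of 17.9, 20.4 and 22.3. In both clusters the order of the 3 foot libraries was the order of the 3 siphon libraries.

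S2, S4 and S7 share an identifier up to its last number and were counted as 1 source, since reads could have been divided between them and their values are not independent. The 21 siphon-higher clusters come from 19 such sources and the 6 foot-higher clusters from 6. S2 had 345, 838 and 441 FPKM in the siphon, against 21.5, 53.3 and 25.03 FPKM in the foot. S4 had 330, 667 and 257 FPKM in the siphon, against 19.5, 38.4 and 11.95 FPKM in the foot. Both were highest in library 2 of each tissue and did not overlap between tissues, and their log2 fold changes were 3.81 and 3.97. S7 was lowest in library 1 of each tissue, with 117, 310 and 283 FPKM in the siphon and 6.76, 12.95 and 12.78 FPKM in the foot. S6 had the smallest change of the 21 clusters. It had 380, 203 and 298 FPKM in the siphon, against 48.4, 22.4 and 43.7 FPKM in the foot, a log2 fold change of 2.73 ± 0.15 (SE, adjusted p = 0.0499, edgeR).

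**Figure D3:**
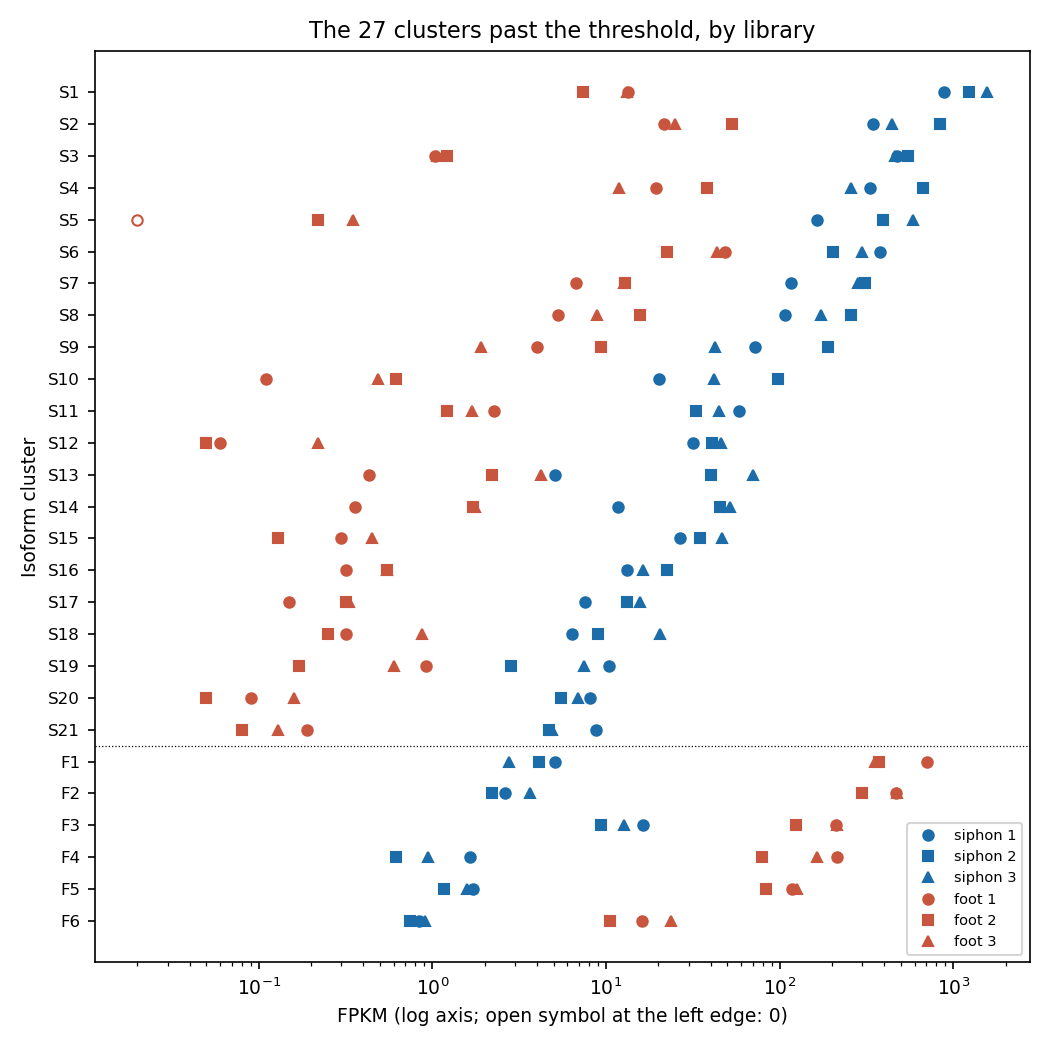
FPKM on a log axis of the 21 siphon-higher clusters (S1 to S21) and the 6 foot-higher clusters (F1 to F6) in each library, with siphon in blue, foot in red and a symbol for each replicate number. In each of the 27 rows the 3 siphon points and the 3 foot points do not overlap, and the open symbol marks the foot library in which S5 had 0 FPKM.

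Among the foot-higher clusters the highest level was that of F1, identifier c1994/5/1917. It had 5.12, 4.12 and 2.77 FPKM in the siphon, against 709, 374 and 356 FPKM in the foot. The siphon libraries were uniformly low, and the log2 fold change was -7.12 ± 0.20 (SE, adjusted p = 0.0311, edgeR). The mantle averaged 849 FPKM, above the foot, and the labial palp 159 FPKM, while the gill and the intestine had 0.71 and 0.67 FPKM. F1 was thus high in foot, mantle and labial palp and low in the siphon.

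F5, identifier c21764/1/3208.1, passed with and without the block and is likewise named after its values were seen. It had 1.71, 1.17 and 1.58 FPKM in the siphon, against 117, 83.3 and 126 FPKM in the foot. The groups were far apart, with a log2 fold change of -6.39 ± 0.21 (SE, adjusted p = 0.0312, edgeR). No other tissue averaged more than 0.637 FPKM, so the siphon level, though low, was the second of the 6.

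F2 and F4 were also highest in the foot. F2 had 2.62, 2.20 and 3.66 FPKM in the siphon, against 469, 297 and 475 FPKM in the foot, and its log2 fold change of -7.43 was the largest among the called foot-higher clusters. F4 had 1.64, 0.62 and 0.94 FPKM in the siphon, against 214, 79.6 and 165 FPKM in the foot. Foot library 2 was the lowest foot library in both clusters, as it was in F3, F5 and F6. F2 was present at 24.1 to 28.4 FPKM in labial palp, intestine and gill and at 5.06 FPKM in the mantle, and F4 averaged 1.28 to 7.36 FPKM in the other 4 tissues.

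F3 differed from the other foot-higher clusters in that the siphon was the exception among the tissues. It had 16.3, 9.32 and 12.6 FPKM in the siphon, against 212, 124 and 215 FPKM in the foot. All other tissues were above the foot, with means of 1732 FPKM for the labial palp, 715 FPKM for the intestine, 369 FPKM for the mantle and 208 FPKM for the gill. F6, the lowest of the 6, had 0.84, 0.74 and 0.91 FPKM in the siphon, against 16.1, 10.6 and 23.7 FPKM in the foot, and 5.33 FPKM on average in the mantle.

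Differences were also described by their size within the 3 same-numbered pairs, on log2(CPM + 0.5) and without a test. This description was chosen after the data were seen. A difference of any size in the same direction in 3 of 3 pairs was found for 5630 clusters higher in the siphon (19.9%) and 5274 higher in the foot (18.6%). At least 2-fold in every pair, the counts were 585 and 452. At least 4-fold, they were 169 (0.597%) and 109 (0.385%), and at least 16-fold, 41 and 15. The siphon-higher count exceeded the foot-higher count at each of these sizes. With a pseudocount of 0.1 CPM in place of 0.5, the 4-fold counts were 283 and 160. With scaling by library totals alone, they were 203 and 73 in place of 169 and 109. Requiring only 2 of the pairs, with the remaining one left out, gave 286, 244 and 258 siphon-higher clusters without number 1, 2 and 3, and 209, 159 and 167 foot-higher clusters. Leaving a pair out drops a condition, so these counts could only stay the same or rise. All 21 and all 6 clusters called by edgeR were in the 4-fold sets, and DESeq2 called 168 of the 169 and 108 of the 109.

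The counts are given next by level. Among the 4991 clusters under a mean of 1 FPKM over the 6 libraries, 1 was at least 4-fold higher in the siphon and 1 in the foot. Between 1 and 10 FPKM there were 91 and 43 of 16078 clusters (0.566% and 0.267%), and between 10 and 100 FPKM 61 and 54 of 6343 (0.962% and 0.851%). At 100 FPKM and above there were 16 and 11 of 918 clusters (1.74% and 1.20%). The pseudocount keeps clusters with few reads from reaching 4-fold, so these counts do not rank the levels. The median absolute fitted log2 fold change was largest under 1 FPKM, at 0.999, against 0.422, 0.366 and 0.476 in the following levels. The 169 siphon-higher clusters took 1.36%, 1.56% and 1.76% of the reads of siphon libraries 1, 2 and 3, against 0.0869%, 0.0629% and 0.110% of those of the foot libraries. The 109 foot-higher clusters took 0.172%, 0.225% and 0.175% of the siphon reads, against 1.52%, 1.82% and 1.90% of the foot reads. Their effective lengths, as implied by the deposited counts and FPKM, had a median of 1637 bases for the siphon-higher clusters and 1105 bases for the foot-higher clusters, against 1674 bases for the clusters tested that had at least 100 reads.

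Clusters read in 1 tissue alone were counted next, with on meaning at least 10 reads in each of the 3 libraries and off meaning 0 reads, after rounding, in each of the 3 libraries of the other tissue. There were 29 clusters on in the siphon and off in the foot (0.102%) and 9 on in the foot and off in the siphon (0.0318%). None of the 38 passed the edgeR test, in which all 38 had an unadjusted p under 0.05 and adjusted p lay between 0.105 and 0.320 for the siphon clusters and between 0.099 and 0.286 for the foot clusters. The 38 were chosen on the same reads that the test used, so their low unadjusted p follows in part from the choice. Against a floor of 3 reads over the 3 off libraries, the siphon clusters were at least 10.1-fold to at least 452-fold higher in the siphon, and the foot clusters at least 16.2-fold to at least 811-fold higher in the foot. The counts moved with the definition. Of the 9 foot clusters, 4 were at exactly 0 in every siphon library before rounding, and with on set at 50 reads there were 6 siphon clusters and 4 foot clusters. With 1 library left out, 45 to 68 clusters were on in the siphon and off in the foot, and 13 to 37 on in the foot and off in the siphon. Leaving a library out drops a condition, so these counts could only stay the same or rise. Each of the 6 libraries moved these counts by more than 1.5 times, except siphon library 2 for the foot clusters, for which the count was 13.

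The siphon cluster with the highest mean level among the 29 had 1214, 210 and 100 reads in the siphon libraries against 0 in each foot library. Reads were also present in the mantle at a mean of 19.2 FPKM, in the gill at 6.73 and in the labial palp at 3.87, with 0 FPKM in the intestine. A second cluster was steadier over the pools, with 628, 541 and 484 reads in the siphon and 0 in each foot library, and at most 0.917 FPKM in any other tissue. The foot cluster with the highest level, which was chosen after its values were seen, had 0 reads in each siphon library against 958, 104 and 935 reads in the foot libraries. Its mean was 63.8 FPKM in the foot and at most 0.44 FPKM in every other tissue.

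Most clusters on in the siphon and off in the foot were read in other tissues too. Of the 9 on in the foot, a smaller part was read in 3 of 3 libraries there. The share of all clusters tested that were read in 3 of 3 libraries is not given here, so these counts are descriptions. Of the 29 siphon clusters, 20 were read in 3 of 3 mantle libraries, 18 in 3 of 3 gill libraries, 18 in 3 of 3 labial palp libraries and 11 in 3 of 3 intestine libraries. A single cluster of the 29 had 0 reads, after rounding, in all 12 libraries of the other 4 tissues. The siphon had the highest mean FPKM of the 6 tissues for 7 of the 29, the intestine for 9, the gill for 6, the mantle for 5 and the labial palp for 2. Of the 9 foot clusters, 3 were read in 3 of 3 mantle libraries and 2 in 3 of 3 libraries of each of gill, labial palp and intestine. Each of the 9 had reads in some library of the other 4 tissues, and 5 were highest in the foot. Of all clusters tested, the siphon was the highest for 7.35% and the foot for 7.50%. The intestine was the highest for 24.09%, the gill for 21.3%, the mantle for 15.89% and the labial palp for 23.85%.

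The libraries of the other 4 tissues took no part in the comparison, and the changed clusters were placed in them by mean FPKM. Of the 21 siphon-higher clusters that passed the test, 16 were highest in the siphon among the 6 tissues, 4 in the gill and 1 in the mantle. In 9 of the 21 the siphon was at least 4-fold above the highest of the other 4 tissues on mean FPKM + 0.1, and these were S2, S3, S4, S7, S8, S9, S11, S15 and S16, or 7 of 19 sources. In 5 of the 21, S5, S12, S18, S19 and S20, the foot was at least 4-fold below the lowest of the other 4 tissues. The corresponding shares of all clusters tested were 2.81% and 5.35%. S10 was higher in another tissue than in either. It had 20.1, 98.1 and 42.0 FPKM in the siphon, against 0.11, 0.62 and 0.49 FPKM in the foot, and averaged 547 FPKM in the gill. Its log2 fold change was 6.78 ± 0.32 (SE, adjusted p = 0.0469, edgeR).

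Among the other 4 tissues the mantle was the highest for 13 of the 21 siphon-higher clusters (61.9%), the gill for 6, and the labial palp and the intestine for 1 each. Counted by source, the mantle was highest for 11 of 19 and the gill for 6. The counts of highest tissue for the called clusters of both directions depended on the summary used. With median FPKM in place of mean FPKM, 4 of them moved and 4 did not. With mean CPM, 1 moved and 7 did not. The intestine cluster was S3, with a mean of 2.95 FPKM in the intestine and 2.93 FPKM in the gill, and its intestine libraries had 8.46, 0.12 and 0.27 FPKM, so that 1 library set the order. Over all 28330 clusters tested the mantle was the highest of the 4 for 21.4%, the gill for 25.8%, the labial palp for 26.6% and the intestine for 25.8%. In the larger set of 169 siphon-higher clusters the gill led with 70 clusters (41.4%), followed by the mantle with 58 (34.3%), the labial palp with 22 (13.0%) and the intestine with 19 (11.2%). The mantle was therefore not the leading tissue of that set. Of the 109 foot-higher clusters the mantle was highest for 48 (44.0%), the labial palp for 25 (22.9%), the intestine for 20 (18.3%) and the gill for 16 (14.7%). The shares are descriptions with no test, and those of all clusters tested stand beside them for reading.

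**Figure D4:**
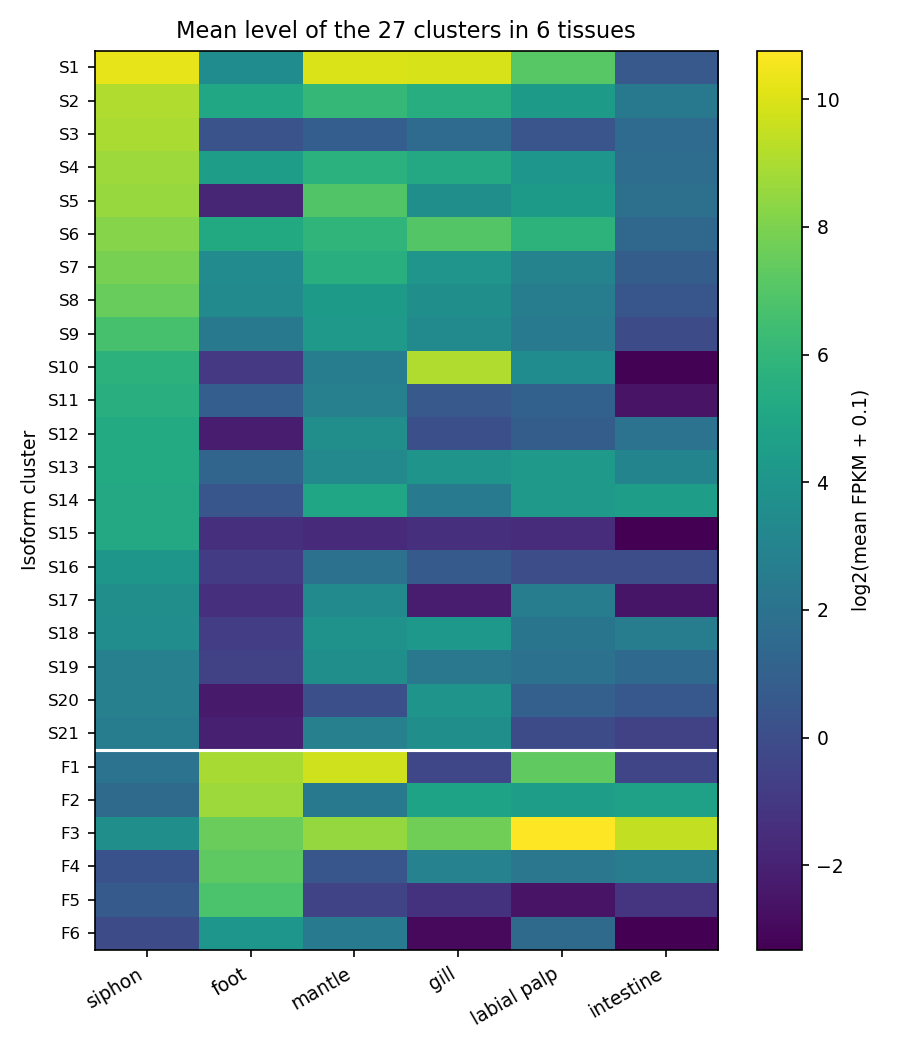
Colour map of log2(mean FPKM + 0.1) of the 27 clusters in siphon, foot, mantle, gill, labial palp and intestine, with the mean taken over 3 libraries and a white line between the siphon-higher (S) and the foot-higher (F) clusters. S3 and S15 are high in the siphon column alone and F5 in the foot column alone, while S1 is high also in mantle and gill, S10 highest in the gill and F3 low in the siphon alone.

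The median levels of the 169 siphon-higher clusters placed the intestine near the foot and the mantle, gill and labial palp between foot and siphon. Their median was 17.0 FPKM in the siphon, 0.52 FPKM in the foot, 9.55 in the gill, 8.38 in mantle, 6.33 in labial palp and 1.38 in intestine. Over all clusters tested the medians were 3.86 FPKM in siphon, 3.23 in foot, 7.31 in gill, 5.10 in mantle, 7.56 in labial palp and 6.44 in intestine. Against these, the 169 clusters stood higher in gill and mantle and lower in labial palp and intestine. The siphon was the highest of the 6 tissues for 75 of the 169 (44.4%) and the foot the lowest for 85 (50.3%). The shares of all clusters tested were 7.35% and 41.9%. For 94 of the 169 (55.6%) at least 1 other tissue was above the siphon, against 85.1% of all clusters with a tissue above both siphon and foot. The median of the 109 foot-higher clusters was 2.20 FPKM in the siphon, 22.9 in the foot, 5.40 in mantle, 4.69 in labial palp, 3.41 in gill and 1.65 in intestine. In labial palp, gill and intestine these medians lay below those of all clusters tested, and in the mantle slightly above. The foot was the highest of the 6 tissues for 69 of the 109 (63.3%), against 7.50% of all clusters tested. In 33 of the 109 (30.3%) the foot was at least 4-fold above the highest of the other 4 tissues, and in 29 of the 169 (17.2%) the siphon was. The shares of all clusters tested were 3.13% for the foot and 2.81% for the siphon. Each set was chosen for its higher level in 1 of the compared tissues, so a high rank of that tissue among the 6 is in part a property of the choice.

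**Figure D5:**
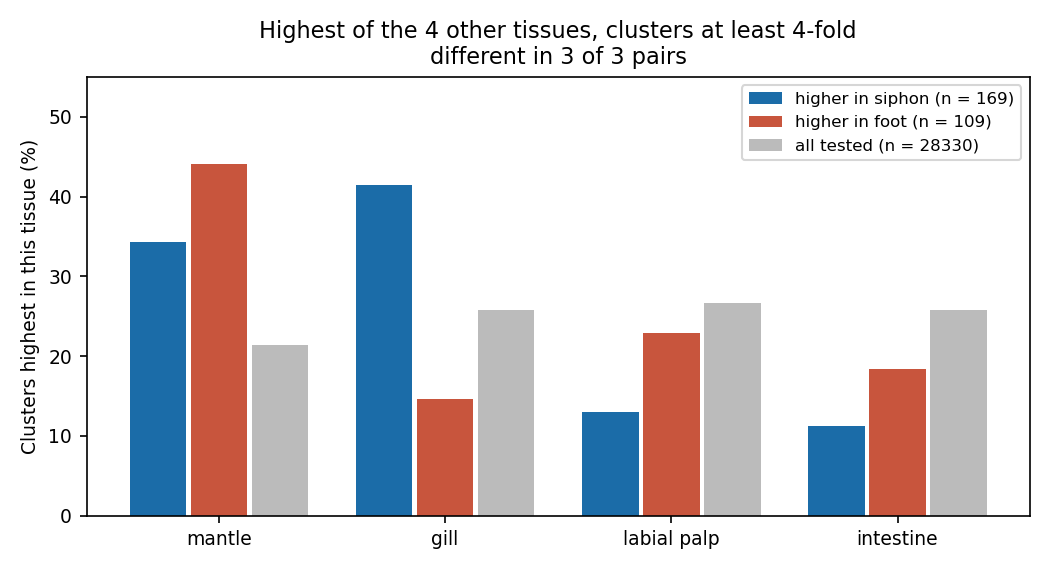
Percentage of clusters whose mean FPKM was highest in the mantle, gill, labial palp or intestine, the 4 tissues outside the comparison, for the 169 clusters at least 4-fold higher in the siphon, the 109 at least 4-fold higher in the foot and all 28330 clusters tested. The gill (41.4%) and the mantle (34.3%) lead for the siphon-higher clusters and the mantle (44.0%) leads for the foot-higher clusters.

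The distribution of reads over clusters was compared last. The clusters that together held 50% of the reads numbered 536, 332 and 360 in the siphon libraries, against 404, 176 and 254 in the foot libraries. The groups overlapped, with means of 409 ± 111 in the siphon and 278 ± 116 in the foot (SD, n = 3 each, two-sided exact permutation p = 0.3, where 0.1 is the smallest that 3 against 3 allows). The 10 most abundant clusters took 7.24%, 11.0% and 10.2% of the reads in the siphon, against 8.71%, 15.2% and 12.1% in the foot (two-sided exact permutation p = 0.4). Clusters with at least 1 read numbered 27015, 24953 and 25292 in the siphon and 26154, 24529 and 24874 in the foot (two-sided exact permutation p = 0.5). All 3 measures differed in the same direction in 3 of 3 same-numbered pairs, with siphon minus foot of 132, 156 and 106 clusters for the first, -1.47, -4.21 and -1.86 percentage points for the second, and 861, 424 and 418 clusters for the last. A paired test, added after the data were seen, gave a two-sided exact sign-flip permutation p of 0.25 for each, the smallest that 3 pairs allow. Neither test could therefore pass 0.05. The directions were the same after thinning to equal totals.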

How the data were processed

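RNA of 18 tissue pools was made into libraries with an Illumina kit, while the series design names an instrument of Pacific Biosciences. The authors deposited estimated counts, and FPKM scaled by length and library total, for 32250 isoform clusters. Submitters' processing notes name RSEM, Bowtie2 and DESeq 1.10.1. What each did, and the reference used, is not given in the sources used here. Reads of near-identical clusters could have been divided between them.

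Estimated counts were rounded to whole numbers. Clusters with at least 10 reads over the 6 libraries were tested with the quasi-likelihood test of edgeR 4.0.16 (R 4.3.3; TMM scaling; tissue and replicate number in the model; Benjamini-Hochberg adjustment over all tested clusters). The block was used because same-numbered siphon and foot libraries deviated together from their tissue means. Correlations of these deviations were 0.846, 0.762 and 0.799 for numbers 1, 2 and 3, all above the limit of 0.1, and between -0.477 and -0.268 for unequal numbers. Removing the tissue mean draws the values for unequal numbers negative when those for equal numbers are positive. They are therefore not separate evidence of pairing. In the edgeR fit with the block, 4282 of the 28330 clusters tested differed between numbers (adjusted p under 0.05). Scripts were tested on simulated data. The alternatives were DESeq2 1.42.0, limma 3.58.1 on log2(FPKM + 0.1) and log2(FPKM + 1), other scalings and read minimums, all 18 libraries, no block, and leaving out each library or number. Single values per library were compared with exact permutation tests. Identifiers were to be printed for the called cluster with the highest mean FPKM in each direction, and for the highest on and off cluster past the threshold, of which there was none. The compared groups and the sets described were chosen with earlier results of these data known.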

Additional observations from a re-analysis of the deposited data

How the results depend on the processing

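Without the replicate block the counts of clusters that differed, that were higher in the siphon and that were higher in the foot were 2, 1 and 1, in place of 27, 21 and 6. In the same order they were 3794, 1834 and 1960 with DESeq2 (2197 clusters had no adjusted p), 952, 516 and 436 with DESeq2 and no block, 202, 127 and 75 with limma on log2(FPKM + 0.1), 492, 312 and 180 on log2(FPKM + 1), 538, 293 and 245 with all 18 libraries in the fit, and 124, 81 and 43 with the newer quasi-likelihood method of edgeR. The share of calls higher in the siphon was 77.8% with edgeR and the block, 48.3% with DESeq2, 62.9% with limma on log2(FPKM + 0.1), 54.5% with all 18 libraries and 65.3% with the newer method. Leaving out any library or number gave counts of 0 to 0 with edgeR, while DESeq2 gave 2223, 1055 and 1168 without number 1, 1164, 595 and 569 without number 2, and 2131, 976 and 1155 without number 3. DESeq2 without the block or without a number, the newer edgeR method all alternatives of the paired 4-fold counts, the count by source and the sign-flip test were chosen after seeing the data. RLE scaling kept 21 of the 27 calls and scaling by library totals 26. The other read minimums kept all 27. Scaling by library totals moved the median log2 fold change of all clusters to 0.28.

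The counts on in the siphon and on in the foot were 49 and 14 when on meant 5 reads and 6 and 4 when it meant 50 reads, in place of 29 and 9. The foot count was 4 when off meant exactly 0 before rounding. With 1 library left out, where the counts could only stay the same or rise, they ranged from 45 to 68 and from 13 to 37. The paired 4-fold siphon count was 283 with a pseudocount of 0.1 CPM. Without 1 number, where the paired counts could only stay the same or rise, they ranged from 244 to 286 and from 159 to 209.

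The edgeR fit with the block had 2 residual degrees of freedom, and fewer when a library or number was left out. Why the counts differed between tools and settings was not tested. Counts of clusters without a call say nothing of equal levels. Each library is a pool, so no spread between individuals was measured.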

Other observations

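The most abundant clusters were largely common to siphon and foot, and 9 of the 10 highest by mean FPKM were the same in both tissues. The first in both had 2129, 19230 and 15300 FPKM in siphon libraries 1, 2 and 3, against 2919, 35310 and 23000 FPKM in the foot libraries. It was low in both libraries numbered 1, and the log2 fold change of -0.88 did not pass (adjusted p = 0.198, edgeR with the replicate block). Another of the shared clusters had 51.0, 6755 and 6357 FPKM in the siphon and 69.1, 9387 and 7488 FPKM in the foot, so that the number and not the tissue set apart the low libraries.

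The cluster of the 10 highest in the foot that was not among the 10 highest in the siphon had 128, 7564 and 0 FPKM in the siphon libraries, against 60.3, 18850 and 0 FPKM in the foot libraries. It was thus among the most abundant of the foot through 1 pool alone, and was listed at 0 in both libraries numbered 3. These clusters were chosen after their values were seen.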
